A study of Mus musculus with 8 samples.

Results

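Histone genes were described in platelet RNA of TNFdARE mice and littermate controls. Histones are the proteins around which nuclear DNA is wound, and platelets have no nucleus. The members were all genes whose symbol began with Hist1h to Hist4h, H2af, H3f3 or H1f, without names containing -ps, which gave 87 of 43548 genes. Of these, 69 carried the symbols of the histone clusters and were taken as replication-dependent histones, and 18 were taken as variant histones. By their M21 annotation, 6 members do not code for protein: H3f3aos is an antisense transcript, Hist2h2bb a lincRNA, and H3f3c, H2afy3, Hist1h2aj and Hist1h2al are pseudogenes. Of these, only H3f3c was above 0 in any mouse.

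RNA came from washed platelets of 4 TNFdARE mice and 4 control littermates at baseline, aged 8 to 12 weeks, with 2 females and 2 males per group by the labels. TNFdARE mice lack the AU-rich elements of Tnf, which raises TNF-α levels, and the line was backcrossed to C57BL/6J. By their labels, the former were TNFdAre + and the controls TNFdAre -. Other parts of the labels speak of 3 mice per group and of older males, and the group size and ages of the study's methods were used. All samples carry the same batch label. Levels are FPKM, fragments scaled to transcript length and library depth, a unit inferred from the values, and the number of reads behind them is unknown. Where 4 values follow each other for a group, they are in the order of mice 1 to 4.

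Replication-dependent histone genes are transcribed in S phase, when new DNA is packed, and their mRNAs usually end in a short stem-loop in place of a poly(A) tail. The stem-loop-binding protein SLBP handles these mRNAs, which are degraded when DNA synthesis stops. Variant histone genes are expressed throughout the cell cycle, mostly from spliced and polyadenylated mRNAs, and replace the canonical histones at particular places. Platelet mRNA is inherited from the megakaryocyte, a cell that copies its DNA repeatedly without dividing.

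Sequences at the 3′ end, where most transcripts of the classes are known to differ, are shown first. They were read from GENCODE M21 transcripts of GRCm38, and capitals mark the 16-base stem-loop, or the single near match to it in the second group. The exact stem-loop is shown for the H1 gene, an H4 gene and an H2A gene with high levels, and for the H2A neighbour of Hist1h2bc.

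Hist1h1c: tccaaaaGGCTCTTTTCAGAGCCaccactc
Hist1h4m: aactaaaGGCCCTTTTCAGGGCCatc
Hist2h2aa2: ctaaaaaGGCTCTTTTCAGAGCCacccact
Hist1h2ac: acccaaaGGCTCTTTTCAGAGCCcccactt

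Hist1h4i and the variant H2afx held the stem-loop with 1 mismatch.

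Hist1h4i: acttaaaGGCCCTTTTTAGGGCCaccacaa
H2afx: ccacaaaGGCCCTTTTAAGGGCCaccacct

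The polyadenylation signal AATAAA, in capitals, stood within the last 50 bases of an H3f3a transcript and also of the Hist1h1c transcript.

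H3f3a: aatttgaaaaatAATAAAagtaccaataga
Hist1h1c: gtgtatgcttctAATAAAaagcgtttagtt

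Histone transcripts were listed in every mouse, and most of their signal came from genes classed by symbol as replication-dependent, with Hist1h2bc, an H2B gene, the largest single part by mean FPKM. In all, 44 of the 87 members (50.6%) were above 0 in at least 1 mouse, against 6566 (15.1%) of all genes. By class, 37 of 69 replication-dependent genes (53.6%) and 7 of 18 variants (38.9%) were above 0. The remaining 43 were at 0 in all 8 mice, and a listed 0 can be a failed estimate as well as an absent transcript.

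Replication-dependent genes made up 95.5% of the mean histone FPKM and variants 4.47%. Hist1h2bc alone made up 44.0%, and 34.1% to 55.3% in single mice, and without it the share of replication-dependent genes was 92.0%. The class rests on symbols only, and the annotated M21 transcript of Hist1h2bc has 2 exons and no stem-loop. By protein family, H2B genes made up 49.9%, H4 genes 27.1%, H2A genes 10.4%, H1 genes 8.62% and H3 genes 3.94%. H2A, H2B, H3 and H4 form the nucleosome core in equal numbers, and H1 binds the DNA between cores. H3 was the lowest core family by this mean although 8 of its 16 genes were above 0. The order varied by mouse, since H3 (22.8 FPKM) exceeded H4 (12.1) in control mouse 1, H4 (246) exceeded H2B (139) in TNFdARE mouse 1, and H2A (75.8) exceeded H4 (70.4) in TNFdARE mouse 4.

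Detection differed widely between mice of the same group. The number of histone genes above 0 was 11, 22, 27 and 24 in controls, and 8, 25, 33 and 16 in TNFdARE mice. TNFdARE mouse 1 had the fewest histone genes and TNFdARE mouse 3 the most, so that the control mice lay within the TNFdARE range. The same mice had the fewest and the most genes above 0 over the whole table, 818 and 4917, and the part of library quality in this order was not tested.

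The group means were 21 ± 6.98 genes in control mice and 20.5 ± 10.8 in TNFdARE mice (SD, n = 4). Variants alone numbered 1, 6, 4 and 5 in controls and 1, 5, 6 and 2 in TNFdARE mice. Control mouse 1 and TNFdARE mouse 1 each listed a single variant, H3f3a in the former and H2afx in the latter.

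**Figure D1:**
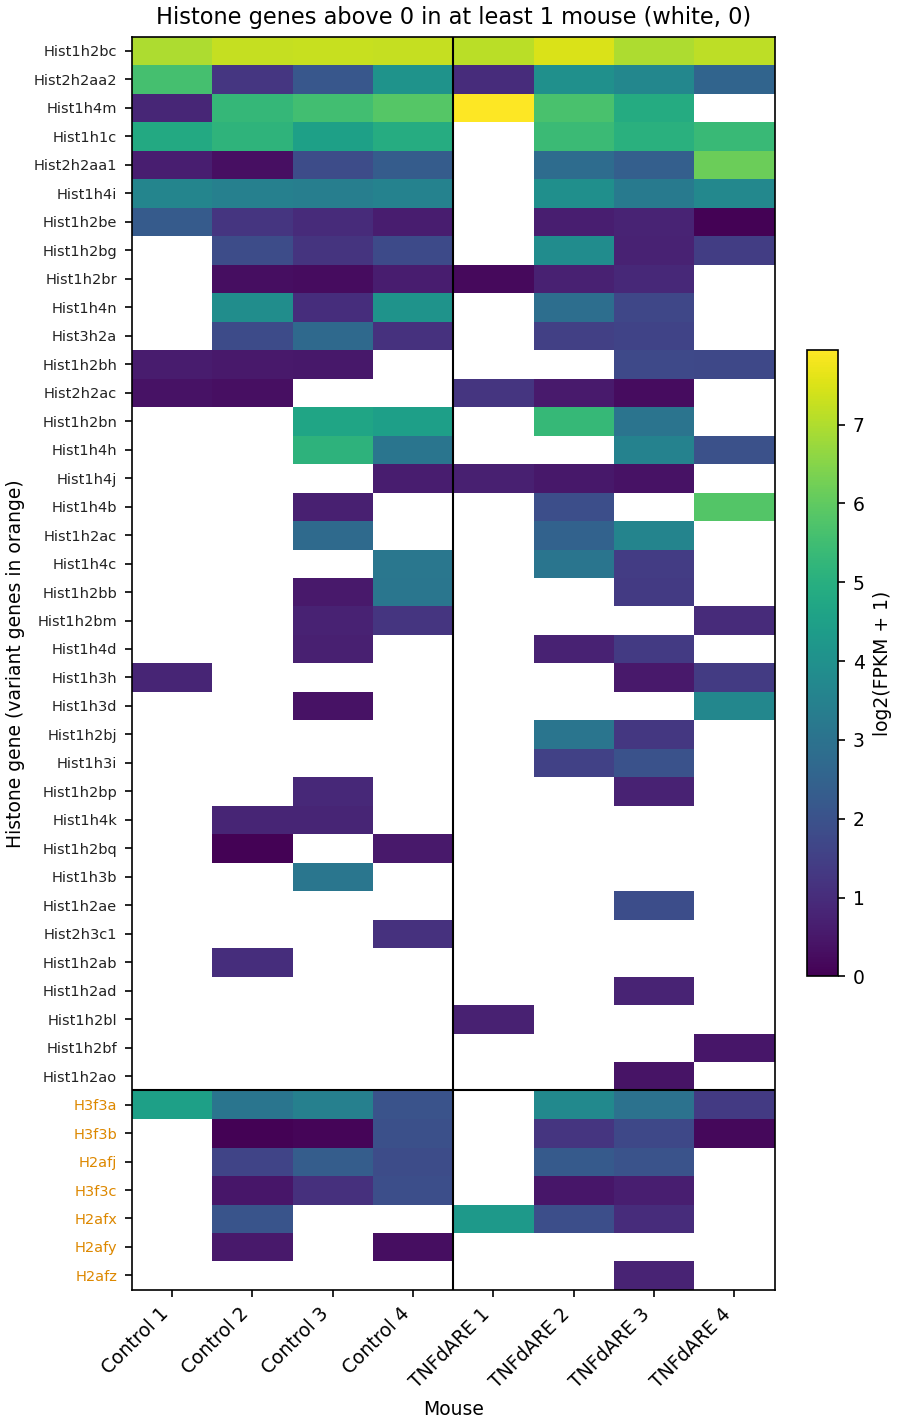
Each row is one of the 44 histone genes above 0 in at least 1 mouse, each column a mouse, and the colour gives log2(FPKM + 1), with white for 0. Hist1h2bc and Hist2h2aa2 were above 0 in all 8 mice, and 9 genes were above 0 in 1 mouse only.

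Only Hist1h2bc and Hist2h2aa2 were above 0 in all 8 mice. A further 5 replication-dependent genes (Hist1h4m, Hist1h1c, Hist2h2aa1, Hist1h4i and Hist1h2be) and 1 variant (H3f3a) were above 0 in 7. At the other end, 8 replication-dependent genes and H2afz were above 0 in 1 mouse. Of the 44 genes, 30 were above 0 in both groups, 6 in control mice only and 8 in TNFdARE mice only.

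Hist1h2bc, which encodes an H2B protein, was the most abundant histone gene by mean FPKM and ranked 36 among the 1534 genes tested, those whose FPKM averaged 1 or more. Its FPKM was 124, 151, 155 and 152 in controls and 139, 178, 125 and 143 in TNFdARE mice. All 8 values lay close together and the groups overlapped. The means were 145 ± 14.1 in control and 146 ± 22.7 in TNFdARE platelets (SD, n = 4).

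The highest value of Hist1h2bc was 1.43 times the lowest, and its coefficient of variation over the 8 mice was 12.0%. None of the other genes tested had a lower one. The median was 104% over all genes tested and 49.1% over the 400 tested genes that were above 0 in every mouse. This measure was singled out after the values were seen, and it depended on the scaling of the libraries. Under median-of-ratios scaling 4 genes, and after rescaling each library to the same summed FPKM 10 genes, had a lower coefficient of variation, with Hist1h2bc at 13.3% and 27.0%. When single mice were left out, 0 to 4 genes had a lower one.

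**Figure D2:**
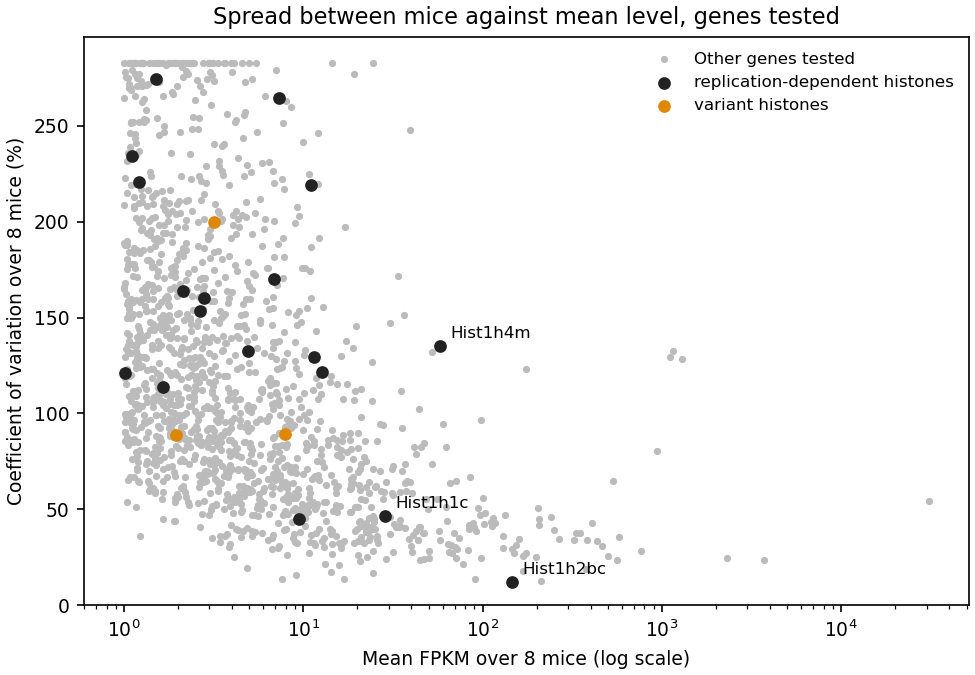
Coefficient of variation over the 8 mice (percent) against mean FPKM (log axis) for the 1534 genes tested, with replication-dependent histones in black and variants in orange. Hist1h2bc, at a mean of 146 FPKM and 12.0%, is the lowest point of the plot, while Hist1h4m lies at 135%.

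Hist1h2bc lies at chr13:23684199-23692908 on the plus strand of GRCm38, and 54 of the replication-dependent members lie on that chromosome. Its M21 transcript has 1156 bases in 2 exons, with 742 bases after the stop codon, of which 9 are in the exon that holds the stop codon. This transcript had no stem-loop, exact or with 1 mismatch, and neither AATAAA nor ATTAAA in its last 50 bases. Only the spliced transcript was searched, so genomic sequence directly past those 9 bases was not. In Hist1h2bg, another H2B gene, the stem-loop starts 29 bases after the stop codon. Of its transcript, 34.0% matched other genes at 95% identity or more. Part of its FPKM may thus depend on how reads shared among H2B genes were assigned, which was not tested.

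Hist1h2bc starts 251 bases from Hist1h2ac, an H2A gene transcribed in the opposite direction (chr13:23681467-23683948, minus strand). FPKM of Hist1h2ac was 0, 0, 5.73 and 0 in controls and 0, 4.59, 10.9 and 0 in TNFdARE mice. It was thus listed in 3 of the 8 mice, while its neighbour was high in all. On mean FPKM, which is per length of transcript, Hist1h2bc was 55.0-fold higher, and 47.9-fold to 101-fold when single mice were left out, the upper end without TNFdARE mouse 3. The sequence between the start sites is shown because it holds both of them; it is the RefSeq promoter of Hist1h2ac (chr13:23683910-23684209, minus strand, GRCm38.p6). Capitals mark CCAAT or its reverse complement ATTGG (3 matches), the octamer ATGCAAAT and TATAAA.

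Hist1h2ac promoter: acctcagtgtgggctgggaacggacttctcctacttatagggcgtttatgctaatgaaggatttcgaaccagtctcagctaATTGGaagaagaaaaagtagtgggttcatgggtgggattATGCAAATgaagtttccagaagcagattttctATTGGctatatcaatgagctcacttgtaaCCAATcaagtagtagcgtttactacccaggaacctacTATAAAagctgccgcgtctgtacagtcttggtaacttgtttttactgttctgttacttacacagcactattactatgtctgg

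Such letters were common in histone promoters whether or not the gene was listed. CCAAT was found on either strand in 78.1% of the 32 promoters of replication-dependent genes above 0 and in 92.0% of the 25 promoters of those at 0, against 37.4% of all 32851 promoters of the same length. TATAAA was found in 62.5%, 56.0% and 13.6%, in the same order, and the octamer in 7 of 32, 5 of 25 and 1.74%. A match is a description of the letters only.

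The members held 12 such pairs of H2A and H2B genes that start within 1000 bases of each other. Both genes were above 0 in at least 1 mouse in 4 pairs, 1 gene in 6 and neither in 2.

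Hist1h1c, which encodes a linker histone of the H1 family, was the only one of 10 H1 genes above 0. Its FPKM was 27.6, 35.0, 22.1 and 29.5 in controls and 0, 41.6, 31.8 and 40.4 in TNFdARE mice. It was in a narrow range in 7 mice and listed at 0 in TNFdARE mouse 1. No other gene matched its transcript at 95% identity or more. Hist1h1c (chr13:23738808-23740367, plus strand) has its stem-loop 24 bases after the stop codon, with 840 further bases annotated beyond it that end in the AATAAA shown above.

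The H4 genes encode the H4 core histone, and their levels were uneven. Hist1h4i (chr13:22040636-22041362, minus strand) was at 11.3, 9.99, 9.59 and 10.4 FPKM in controls and 0, 14.5, 8.38 and 12.1 in TNFdARE mice. Like Hist1h1c it was steady in 7 mice and at 0 in TNFdARE mouse 1, and its transcript also matched no other gene. The control spread was 10.3 ± 0.711 FPKM (SD, n = 4).

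Hist1h4m (chr13:21811746-21812147, plus strand) was at 0.810, 38.6, 45.5 and 56.3 FPKM in controls and 246, 50.2, 28.7 and 0 in TNFdARE mice. The value in TNFdARE mouse 1 stood far above all others and made up 60.4% of that mouse's histone FPKM, while TNFdARE mouse 4 was at 0. The transcript of Hist1h4m is 99.8% identical to that of Hist1h4n over 402 bases, so the split between these genes is uncertain. Hist1h4n was at 0, 13.9, 1.05 and 15.9 FPKM in controls and 0, 6.28, 2.20 and 0 in TNFdARE mice.

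Hist1h4b reached 55.3 FPKM in TNFdARE mouse 4, was at 2.75 in TNFdARE mouse 2 and 0.624 in control mouse 3, and was at 0 in the other 5. Hist1h4h was at 34.0 and 7.48 FPKM in control mice 3 and 4, at 10.5 and 2.92 in TNFdARE mice 3 and 4, and at 0 elsewhere. Hist1h4c was listed in 3 mice, at up to 7.97 FPKM, and Hist1h4j in 4, at up to 0.638.

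Hist2h2aa1 and Hist2h2aa2 encode H2A and lie near each other on chromosome 3 (chr3:96239749-96240276 and chr3:96245497-96246082). Their symbols in the deposited table are swapped relative to M21, and both transcripts match other genes over 90.3% of their length or more. The pair is thus best read together. The longest match of each is to Gm20634, which is not a member, at 100% identity, and reads shared with it are not settled by summing the pair. Hist2h2aa2 was at 48.0, 1.40, 3.50 and 16.0 FPKM in controls and 1.03, 14.8, 11.9 and 4.92 in TNFdARE mice. Hist2h2aa1 was at 0.580, 0.244, 2.61 and 3.94 FPKM in controls and 0, 5.97, 4.34 and 70.9 in TNFdARE mice. A single mouse was high for each, control mouse 1 and TNFdARE mouse 4. The summed FPKM of the pair was 19.1 ± 21.2 in control and 28.5 ± 32.7 in TNFdARE platelets (SD, n = 4).

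Hist3h2a, a further H2A gene, was at 0, 2.51, 5.55 and 1.21 FPKM in controls and 0, 1.87, 2.04 and 0 in TNFdARE mice. Hist2h2ac, also for H2A, was listed in 5 mice at up to 1.36 FPKM. The H3 gene Hist1h3d was listed in 2 mice, at 0.316 FPKM in control mouse 3 and 11.7 in TNFdARE mouse 4.

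Among the other H2B genes, Hist1h2bn was at 24.7 and 21.3 FPKM in control mice 3 and 4, at 38.7 and 7.28 in TNFdARE mice 2 and 3, and at 0 in the remaining 4. Its annotated transcript is 381 bases long and matches other H2B genes over its whole length. Hist1h2be was low but listed in 7 mice, at 0.0373 to 3.85 FPKM. Hist1h2bg was listed in 6 mice, at up to 13.5 FPKM, and Hist1h2br in 6, at up to 0.893. Hist1h2bh was listed in 5 mice at up to 2.38 FPKM, Hist1h2bb in 3 at up to 7.74 and Hist1h2bj in 2 at up to 7.43, both of them TNFdARE mice.

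The variants were low. H3f3a, one of the genes for H3.3, a variant also laid down outside S phase, was at 22.0, 7.43, 9.96 and 3.13 FPKM in controls and 0, 12.7, 6.95 and 1.55 in TNFdARE mice. Control mouse 1 was the highest, and the groups overlapped. H3f3b, the other H3.3 gene, was at 0 in 2 mice and between 0.0414 and 2.81 FPKM in the other 6. The processed pseudogene H3f3c, which is 99.0% identical to H3f3a over 411 bases, was listed in 5 mice at up to 2.79 FPKM.

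H2afx encodes H2A.X, the variant phosphorylated at DNA breaks, and was at 18.7 FPKM in TNFdARE mouse 1, 3.18 in control mouse 2, 2.72 and 1.01 in TNFdARE mice 2 and 3, and 0 in the remaining 4. H2afj was listed in 5 mice at 2.06 to 4.03 FPKM. H2afz, the gene of H2A.Z found in most nucleated cells, was listed only in TNFdARE mouse 3, at 0.723 FPKM. H2afy, for macroH2A, was at 0.444 and 0.223 FPKM in control mice 2 and 4 only. H2afv, H1f0, H1fx and H2afy2 were at 0 in all mice.

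**Figure D3:**
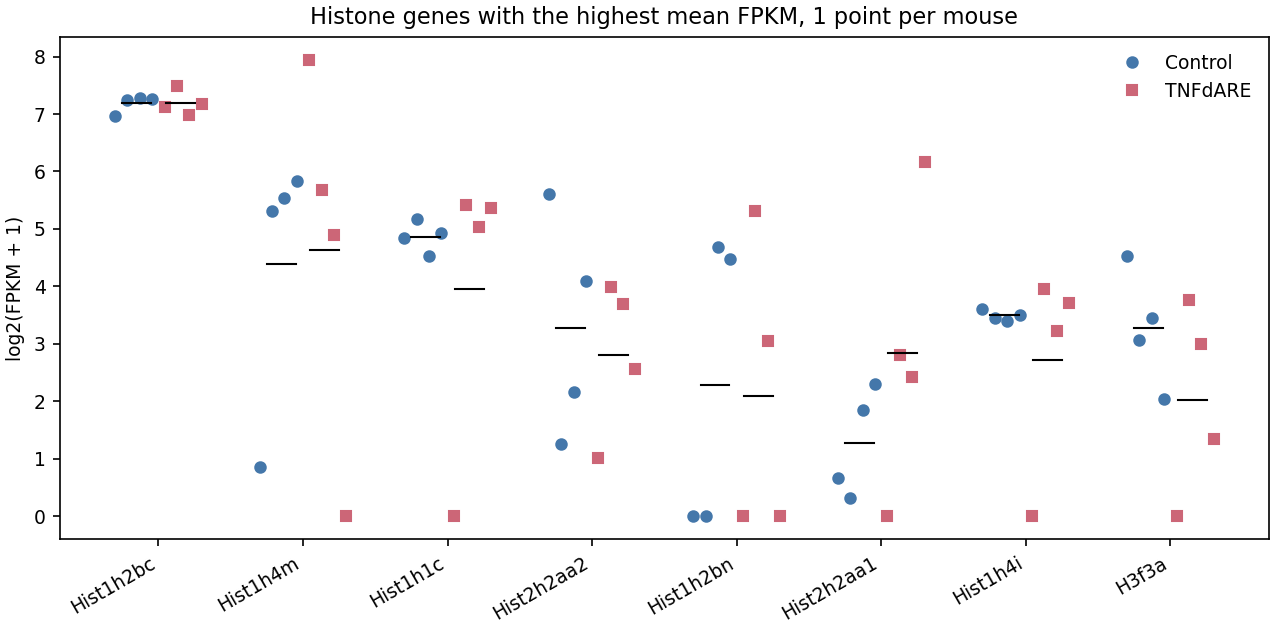
log2(FPKM + 1) of the 8 histone genes with the highest mean FPKM, with 1 point per mouse, control in blue circles, TNFdARE in red squares, and a line at each group mean. Hist1h2bc stays near 7 in every mouse, while the zeros of Hist1h1c, Hist1h4i and H3f3a belong to TNFdARE mouse 1.

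The exact stem-loop, searched as the capitals of Hist1h1c and of Hist1h4m and as the forms that join the left arm of one to the right arm of the other, was present in transcripts of 31 of the 67 replication-dependent members matched in M21 and in none of the 18 variants. Over all 55450 genes it was present in 36 (0.0649%), 5 of them under identifiers that are not those of members. The identifiers of Hist1h2bh and Hist1h2bm did not match M21. An M21 gene named Hist1h2bh has another identifier, so these 5 may include genes that are members by symbol. Among replication-dependent members above 0 in at least 1 mouse 22 of 35 held it, and among those at 0 in all mice 9 of 32. Annotation was also more complete for the former, since 30 of 35 and 20 of 32 had at least 30 annotated bases after the stop codon, and the part of this in the difference was not tested.

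AATAAA in the last 50 bases of a transcript was found in 9 of the 35 replication-dependent members above 0, in 6 of the 32 at 0 and in 10 of the 18 variants, against 36.5% of all genes. Both signals were present in 8 replication-dependent members. Of the 7 replication-dependent genes above 0 in at least 7 mice, 5 held the stem-loop, and the annotated transcripts of Hist1h2bc and Hist1h4i did not. Whether the libraries selected polyadenylated RNA, which decides how stem-loop mRNAs are sampled, is not given in the sources used here.

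Sequence shared between genes limits what a single FPKM means here. Of the 42 members above 0 with an M21 transcript, 35 matched another gene at 95% identity or more over at least 150 bases. The 7 that did not were Hist1h1c, Hist1h4i, H2afx, Hist1h4c, H2afj, Hist1h4d and H2afy.

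The comparison of genotypes asked whether histone transcripts differ in platelets formed under raised TNF-α. In these bulk samples, fewer platelets carrying a transcript and less of it per platelet cannot be told apart. With limma on log2(FPKM + 1), none of the 21 histone genes tested (of 87 members) had an unadjusted p under 0.05, whereas 69 of 1534 genes (4.5%) had, 27 of them higher (1.76%) and 42 lower (2.74%). Quantile normalization turned this split to 34 higher and 25 lower and moved the median log2 fold change of all genes tested from -0.30 to -0.06. No gene (0%) passed an adjusted p of 0.05, and the smallest adjusted p over all genes was 0.86. With sample weights, 2 of the 21 histone genes (Hist1h2bj and Hist1h2ac) had an unadjusted p under 0.05, beside 111 of 1534 genes (7.24%). Hist1h2bj was at 0 in all controls and entered the test through its TNFdARE values alone, so its p is no evidence of a difference. Without TNFdARE mouse 1, 1 histone gene (Hist2h2aa1) had, beside 62 of 1534 (4.04%). No histone gene had groups that did not overlap, against 3.32% of the genes tested.

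In 7 of the 21 genes the mean reached 1 FPKM in a single group, in TNFdARE mice for Hist1h4b, H2afx, Hist1h3d and Hist1h2bj and in controls for Hist3h2a, Hist1h2bb and Hist1h2be. Their entry into the test depended on that group, so their p-values are no evidence of a difference. The counts and medians here are given as a description. The log2 fold change was above 0 for 10 of the 21 histone genes and below 0 for 11. Its median was -0.20, beside -0.30 over all genes tested. The median was -0.10 for the 18 replication-dependent genes and -0.38 for the 3 variants, and the signs of both turned with sample weights, to 0.11 and 0.27. Hist1h2bc had a log2 fold change of 0.00 with an SE of 0.35. The most positive was Hist1h4b at 1.76 (SE 1.12, limma adjusted p = 0.86), which rests on TNFdARE mouse 4 and was 0.46 without that mouse. The most negative was H3f3a at -1.25 (SE 0.87, limma adjusted p = 0.86), which was -0.57 without TNFdARE mouse 1, its only zero, and 0.21 with sample weights.

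A two-sided exact permutation test, which cannot go below 0.029 with 4 against 4 mice, gave p = 0.43 for Hist1h4b and p = 0.29 for H3f3a. Hist1h4b entered the test through its TNFdARE values alone, so its p is no evidence on a difference. The lowest p of this test among the members was 0.086, for Hist1h2be, at 1.68 ± 1.48 FPKM in control and 0.346 ± 0.383 in TNFdARE platelets (SD, n = 4). Hist1h2be entered through its control values alone, so this p is no evidence of a difference either. For Hist1h1c the change was -0.91 (SE 1.01) with all mice and 0.41 without TNFdARE mouse 1, so its direction depends on the zero of that mouse. Hist1h4i moved in the same way, from -0.77 to 0.14.

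**Figure D4:**
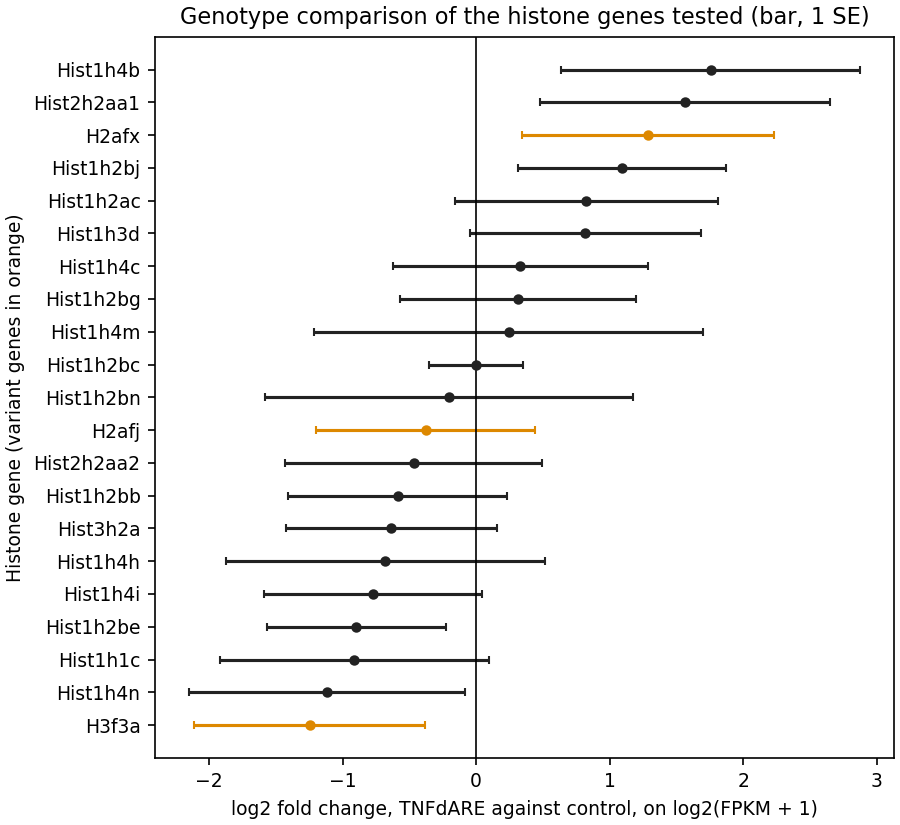
log2 fold change of TNFdARE against control platelets for the 21 histone genes tested, on log2(FPKM + 1), with bars of 1 standard error and variants in orange. Hist1h2bc lies at 0.00 with the shortest bar, and the genes with the largest changes have bars of about 1 unit.

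Summed over each class, histone FPKM overlapped between genotypes. Replication-dependent histones summed to 218, 259, 324 and 336 FPKM in controls and to 388, 393, 262 and 348 in TNFdARE mice. The means were 284 ± 55.8 and 348 ± 60.5 (SD, n = 4). As a share of each library's summed FPKM they were 0.511 ± 0.169% and 0.510 ± 0.135% (SD, n = 4). With AY036118 left out of the total, the shares were 0.859 ± 0.188% and 1.02 ± 0.231%, so the higher TNFdARE mean depended on the scaling. Variants summed to 22.0, 13.6, 15.2 and 11.6 FPKM in controls and to 18.7, 20.9, 14.6 and 1.68 in TNFdARE mice, with means of 15.6 ± 4.52 and 14.0 ± 8.60 (SD, n = 4). TNFdARE mouse 4 stood below the rest in variants only.

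**Figure D5:**
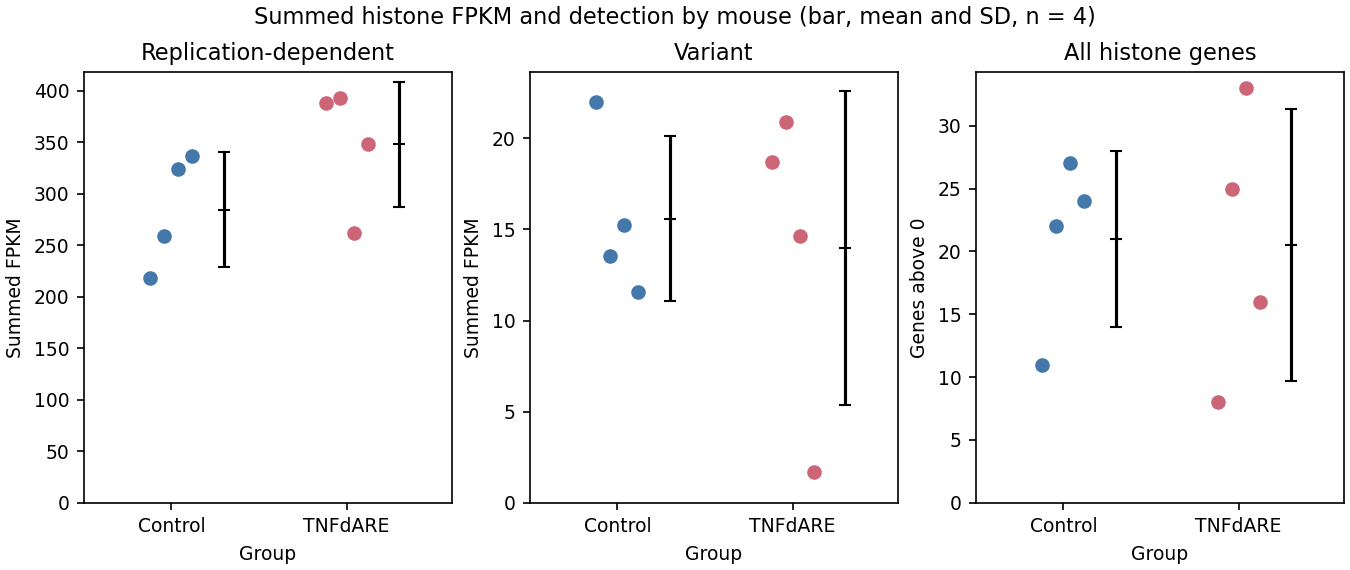
Summed FPKM of replication-dependent and of variant histones, and the number of histone genes above 0, with 1 point per mouse and the mean and SD of each group of 4 at the right. The TNFdARE points for replication-dependent histones lie between 262 and 393, overlapping the control points between 218 and 336.

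Many genes that act on histones were listed at 0, from which no level can be read, since Npm1 and Snrpd3, which nucleated cells use generally, were also at 0 in all mice. Of 22 genes of histone mRNA 3′ processing and decay, 14 were at 0 throughout, 8 were above 0 in some mouse and none reached a mean FPKM of 1. Slbp was at 0 in all 8 mice, and Snrpb, a core protein of small nuclear RNPs, was the highest at 0.282. Of 30 histone chaperones and deposition factors 13 were at 0 throughout, 17 were above 0 in some mouse and 1 was tested. This was Chaf1a, a subunit of the chromatin assembly factor CAF-1, at a mean of 1.05 FPKM and a log2 fold change of -0.75 (SE 0.67). Its TNFdARE values were 0, 1.05, 1.13 and 0 FPKM, so it entered the test through its control values alone. The change is thus no evidence of a difference.

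Of 30 genes of S phase and mitosis, 11 were above 0 in some mouse and 2 were tested, Dut, which hydrolyses dUTP, and Gins2, a subunit of the replicative helicase, at means of 2.16 and 1.65 FPKM. Pcna, Cdk1 and Ccnb1 were at 0 in all mice, Mki67 had a mean of 0.0722 FPKM and Top2a of 0.00727. Of 19 high mobility group and other chromatin proteins, 9 were above 0 in some mouse and 4 were tested, led by Lmna, for the A-type lamins, at 8.71 FPKM. None of the genes tested in these lists had an unadjusted p under 0.05 in limma. The 3 testis-specific histones of the clusters (Hist1h1t, Hist1h2aa and Hist1h2ba) were at 0.

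Cell markers were checked in the same libraries. All 18 platelet and megakaryocyte markers were above 0 in 6 mice, 16 in TNFdARE mouse 1 (Treml1 and Selp at 0) and 17 in TNFdARE mouse 4 (Selp at 0), with summed FPKM of 1804 to 2596 in control and 1621 to 2008 in TNFdARE mice. Of 24 leukocyte markers 9 were above 0 in at least 1 mouse, with sums of 30.8 to 84.6 in control and 25.6 to 38.3 in TNFdARE mice. Lyz2 led at a mean of 31.9 FPKM. Igkc and Cd74 followed at means of 5.18 and 3.59 FPKM, above 0 in 3 and 7 mice. S100a9 was listed only in TNFdARE mouse 4, at 10.3 FPKM. Ptprc, Cd3e and Itgam were at 0 in all mice. Of 19 erythroid markers 18 were above 0 in at least 1 mouse, with sums of 799 to 2232 in control and 1144 to 14740 in TNFdARE mice, and 6 of the 11 tested, Alas2, Fech, Hba-a1, Hba-a2, Hbb-bs and Hbb-bt, were higher at an unadjusted p under 0.05 in limma, against 27 of all 1534 tested (1.76%), none after adjustment. Fech was at 0, 0.519, 1.52 and 0.0503 FPKM in controls and entered the test through its TNFdARE values alone. Its p is thus no evidence of a difference. The part of any of the cells marked by these lists in the histone values was not tested.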

How the data were processed

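Washed platelet RNA was sequenced by the authors as 150 bp reads, and Cufflinks and mm10 are named in the submitters' processing notes. Library selection, strand, aligner version and the treatment of reads shared between genes are not given in the sources used here. The deposited table gives each gene a single value in each mouse, read here as FPKM because the totals differ between columns and some values are minute. Depth is unknown, and summed FPKM was 46047 to 99470 per mouse, with 33.7% to 67.7% from AY036118. All value columns were mapped by library name. The 1534 genes whose FPKM averaged 1 or more over 8 mice were log2-transformed after adding 1. They were compared with limma 3.58.1 (R 4.3.3, trend, Benjamini-Hochberg adjustment), and single genes by an exact permutation test. The limma procedure was tried on simulated, normally spread log2 values. These lacked the many zeros of the real data, so the trial does not cover them. By the labels replicates are separate mice. Across the groups, library names share a number in 2 pairs, control 1 with TNFdARE 1 and control 4 with TNFdARE 3, and what it marks is not stated. The former had the fewest genes above 0 in their groups (1479 and 818), the latter the most (2742 and 4917). Transcripts came from GENCODE M21 (85 of 87 identifiers matched) and promoters from RefSeq (70 members matched). Shared sequence was found with BLAST 2.17.0. Named genes were every member whose FPKM averaged 1 or more or was above 0 in at least 4 mice, members at both ends of the detection order, and from other lists up to 4 with the highest mean among those tested and any with an unadjusted p under 0.05; other genes at 0 or near it were named after their values were seen. Members and lists were chosen with earlier results of these data known. Alternatives changed the pseudocount, filter, scaling, model, sex term, replicate block, shared library number and mice included.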

Additional observations from a re-analysis of the deposited data

Results flagged for a closer look

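Within groups of 4 mice, 60 sets of values were examined for a mouse far from the other 3, by its gap to the nearest mouse as a share of the group's range, and chance alone would pick out about 1 in 20 groups, or 3. In all 15 were picked out, 8 of them because 1 mouse was above 0 and the other 3 at 0, which gives a share of 1 by construction. Those 8 were Hist1h4b, H2afx, Hist1h2ac, Hist1h4c, Hist1h3d and Hist1h4j in control mice, and Hist1h3d and Hist1h2bb in TNFdARE mice.

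TNFdARE mouse 4 stood apart for Hist2h2aa1 (share 0.916, 70.9 against 5.97 FPKM in the nearest mouse) and for Hist1h4b (0.950, 55.3 against 2.75), and TNFdARE mouse 1 for H2afx (0.854, 18.7 against 2.72). TNFdARE mouse 2 stood apart for Hist1h2bg (0.873, 13.5 against 1.72). Control mouse 4 stood apart for Hist1h2bb (0.939, 7.74 against 0.472) and H3f3b (0.971, 2.81 against 0.0808). Control mouse 1 was low for Hist1h2bc (0.866, 124 against 151 FPKM).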

How the results depend on the processing

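The fit was repeated under 21 alternatives, and no gene passed an adjusted p of 0.05 in any of them, with smallest adjusted p between 0.17 and 0.91. The 69 genes with an unadjusted p under 0.05 became 36 when the filter was raised to a mean FPKM of 5 (583 genes tested), and 111 with sample weights, and ranged from 46 to 75 when single mice were left out. The count of histone genes was 0 apart from 2 with sample weights and a range of 0 to 1 without single mice. The replicate block gave 64 genes and 0 histone genes, and same-numbered mice did not deviate together (correlations of -0.067 to 0.060), so the numbers were not taken as pairs. A term for the shared library number, chosen after seeing the data, gave 68 genes and 0 histone genes, with correlations of 0.060 and 0.042 within the 2 pairs. Sample weights moved the split of the calls to 74 higher and 37 lower, from 27 and 42, quantile normalization to 34 and 25, omitting TNFdARE mouse 1 to 35 and 27, omitting TNFdARE mouse 4 to 26 and 20, and omitting control mouse 1 to 8 and 41. The cause was not tested. Of the 21 histone genes, 13 changed sign under some alternative, and Hist2h2aa1, Hist1h2ac and Hist1h2bj, among the 8 that did not, reached an unadjusted p of 0.040, 0.0074 and 0.018 in 1 alternative each, Hist1h2bj having entered the test through TNFdARE mice alone. Without single mice, the median log2 fold change ranged from -0.40 to 0.33 for replication-dependent histones and from -0.83 to -0.021 for variants. With the same mice left out, the log2 ratio of their summed FPKM ranged from 0.18 to 0.40 and from -0.42 to 0.21. As shares of each library's summed FPKM, the ratios of TNFdARE to control means were 0.997 and 0.794. Sample weights turned the medians to 0.11 and 0.27, quantile normalization gave 0.17 and -0.048, no filter 0.12 and -0.21, and a pseudocount of 0.1 -0.28 and -1.07. With a limit of 1 FPKM in place of above 0, control mice listed 13.5 histone genes on average and TNFdARE mice 14.5, which reverses the order of 21 and 20.5, and 10.8 and 12 replication-dependent ones. With 1 mismatch the stem-loop was found in 1 variant. Rescaling to the summed FPKM, chosen after seeing the data, raised the coefficient of variation of Hist1h2bc to 27.0%, and leaving out single mice gave 8.88% to 12.9%. Without read counts, no limit can be set on a value listed at 0.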
